A study of Danio rerio with 2 samples.

Results

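The serotonin and melatonin pathway of the adult zebrafish forebrain choroid plexus was described through 9 genes, matched by gene name in the authors' table, of 25432 genes measured in each library. The choroid plexus is the secretory epithelium, with its vessels and stroma, that lies in the brain ventricles and makes cerebrospinal fluid. Total RNA was sequenced from 2 libraries, each pooled from 12 to 19 forebrain choroid plexuses of untreated fish. The fish were 6 to 8 months old and over 3 cm long, of AB and of nacre genotype (mitfa-/-, lacking functional mitfa and the black pigment cells that need it). Both libraries carry the same labels apart from the batch number in the title, used here as the replicate number, and neither carries any transgene or treatment by its labels. The labels do not tie a strain or an RNA purification (glycogen or spin column) to either library, and pooling hides the variation between fish. The labels state that the pineal gland was removed during dissection.

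Serotonin is made from tryptophan by hydroxylation, the slow step, and then decarboxylation. It is loaded into vesicles, taken back up at the cell surface by a sodium-driven carrier, and broken down by monoamine oxidase. In the pineal gland of fish it is also acetylated and then methylated to melatonin, the hormone of the night, which reaches the blood and the cerebrospinal fluid. Choroid plexus epithelium of mammals is known for its serotonin receptors.

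The members were selected on their roles and on their measured TPM in these libraries, with the shift of the synthesis genes between the replicates in view, so every ratio between the replicates is a description and carries no test. The replicates held 11712489 and 13446356 expected counts. Defining genes of choroid plexus epithelium were abundant in both libraries: all 10 listed markers were at 10 TPM or more, led by the retinol carrier gene rbp4 at 32798 and 35995 TPM, igfbp2a at 1902 and 1932 TPM and the chloride channel family gene clic6 at 1426 and 1513 TPM in replicates 1 and 2. TPM are counts divided by effective transcript length and scaled to 1000000 per library, and CPM are counts scaled to that total without regard to length. A gene is called detected here if it reached 1 TPM in each library. Over all genes, 15125 of 25432 averaged 1 TPM or more, and the share detected was not counted. Counts of detected genes in a list are therefore descriptions, and no list is said to stand out by them.

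The genes of uptake and breakdown stood at like levels in both libraries, while the genes of synthesis except aanat1 were at 14.4 to 188 TPM in replicate 1 and close to or below 1 TPM, except asmt, in replicate 2. Of the 9 members, 7 were at 1 TPM or more in replicate 1 and 5 in replicate 2, and 4 were detected in both, namely mao, slc6a4a, asmt and ddc. At a level of 10 TPM the counts were 7 members in replicate 1 and 2 members in replicate 2, and mao and slc6a4a made up the latter. For scale, ddc at 1.18 TPM in replicate 2 stood above 44.7% of all genes, and aanat2 at 14.4 TPM in replicate 1 above 75.3%. The choice of members used this contrast, so nothing is read from these counts.

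**Figure D1:**
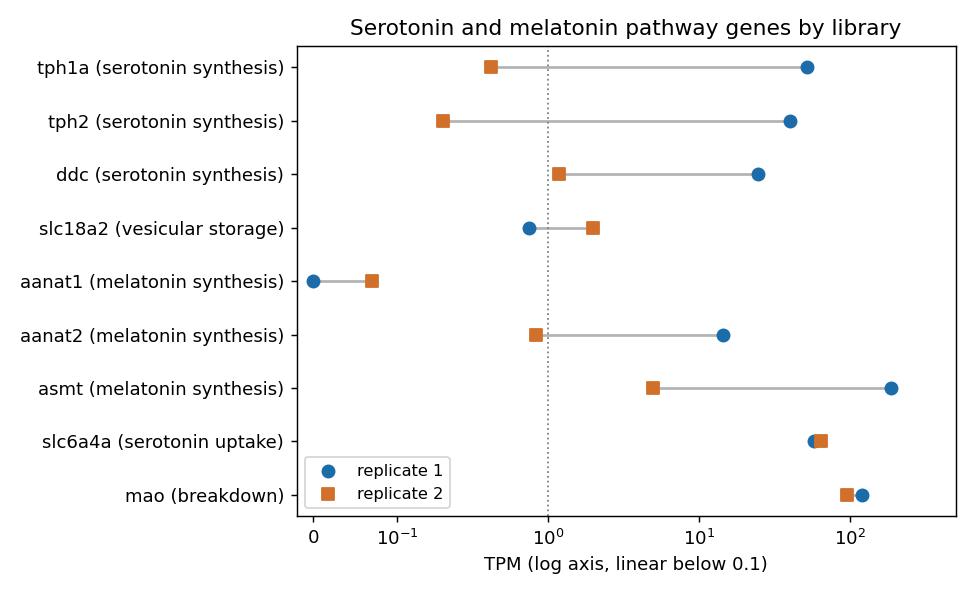
Level of each of the 9 genes in TPM in replicate 1 (circles) and replicate 2 (squares), on a log axis that is linear below 0.1, with a dotted line at the detection level of 1 TPM. The slc6a4a and mao points of both libraries lie close together, whereas tph1a moves from 52.2 to 0.42 TPM and asmt from 188 to 4.93 TPM.

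The serotonin transporter gene slc6a4a (ENSDARG00000061165), whose product carries serotonin back into cells, was at 57.8 TPM in replicate 1 and 63.9 TPM in replicate 2, from 784 and 1007 counts. Its level was 60.9 ± 4.26 TPM (SD, n = 2), and more than 93% of all genes were lower in either library (93.3% and 94.7%). The CPM of slc6a4a was 1.12 times as high in replicate 2 as in replicate 1, with a 95% exact binomial interval of 1.02 to 1.23. Such intervals cover counting error only, not variation between pools. The duplicate gene slc6a4b had 0 counts in both libraries, which allows up to 3 counts per library, or 0.256 and 0.223 CPM. RSEM's effective length of slc6a4a, averaged over its 3 annotated transcripts by their abundance, was 1517 bases in replicate 1 and 1404 bases in replicate 2.

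The monoamine oxidase gene mao (ENSDARG00000023712), which encodes the enzyme that deaminates serotonin and other monoamines in the outer mitochondrial membrane, was the most abundant member on average. It was at 120 TPM in replicate 1 and 94.9 TPM in replicate 2, from 4441 and 4420 counts, or 107 ± 17.5 TPM (SD, n = 2). Its CPM was 1.15 times as high in replicate 1, with an interval of 1.11 to 1.20. In both libraries mao stood above slc6a4a, and the lower mao value exceeded the higher slc6a4a value.

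The vesicular monoamine transporter gene slc18a2 (ENSDARG00000015110), which loads serotonin and other amines into storage vesicles, was low in both libraries. It was at 0.75 and 1.97 TPM in replicates 1 and 2, from 10 and 33 counts, so it passed 1 TPM in replicate 2 alone. Its CPM was 2.87 times as high in replicate 2, with an interval of 1.38 to 6.54. This direction was opposite to that of the 5 synthesis genes with more than 3 counts. The related gene slc18a1 had 0 counts in both.

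Tryptophan hydroxylase, the enzyme of the slow step, was represented by tph1a and tph2. The gene tph1a (ENSDARG00000029432) was at 52.2 TPM in replicate 1 and 0.42 TPM in replicate 2, from 800 and 8 counts. Its CPM was 115 times as high in replicate 1, with an interval of 58.0 to 267. In replicate 1 its level lay next to that of slc6a4a, and the counting intervals of the levels overlapped, at 48.7 to 56.0 TPM for tph1a and 53.9 to 62.0 TPM for slc6a4a. In replicate 2 their counting intervals lay far apart, at 0.181 to 0.828 TPM and 60.0 to 67.9 TPM.

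The gene tph2 (ENSDARG00000057239), the hydroxylase of brain serotonin neurons in mammals, was at 39.9 and 0.20 TPM in replicates 1 and 2, from 631 and 4 counts. Its ratio of CPM was 181, with a wide interval of 70.4 to 667 because only 4 counts stood in replicate 2. Both hydroxylase genes were thus well above the limit of 3 counts in replicate 1 and near it in replicate 2.

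The decarboxylase gene ddc (ENSDARG00000016494), whose enzyme makes serotonin and also dopamine, was at 24.7 and 1.18 TPM, from 802 and 51 counts. Its CPM was 18.1 times as high in replicate 1, with an interval of 13.6 to 24.5. This interval lay below those of tph1a and tph2. In replicate 2 ddc was the highest of the 3 serotonin synthesis genes, and in replicate 1 it was the lowest.

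The melatonin enzyme genes aanat2 and asmt were also higher in replicate 1. The acetyltransferase gene aanat2 (ENSDARG00000079802), the pineal form in fish, was at 14.4 and 0.83 TPM in replicates 1 and 2, from 152 and 11 counts. Its CPM was 15.9 times as high in replicate 1, with an interval of 8.62 to 32.5. The paralog aanat1 (ENSDARG00000036567), the form of the fish retina, had 0 counts in replicate 1 and 1 count in replicate 2, at or below the limit of 3 counts in both, so no ratio is given.

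The methyltransferase gene asmt (ENSDARG00000098249), which acts in the last step of melatonin synthesis, was the highest member in replicate 1 at 188 TPM and the third highest in replicate 2 at 4.93 TPM. It had 1624 and 53 counts, and its CPM was 35.2 times as high in replicate 1, with an interval of 26.8 to 47.2. Its duplicate asmt2 showed no such difference. It was at 10.5 TPM in replicate 1 and 8.25 TPM in replicate 2, from 133 and 131 counts, with a ratio of CPM of 1.17 and an interval of 0.909 to 1.50. In replicate 2 asmt2 was therefore the higher copy, and in replicate 1 asmt was.

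**Figure D2:**
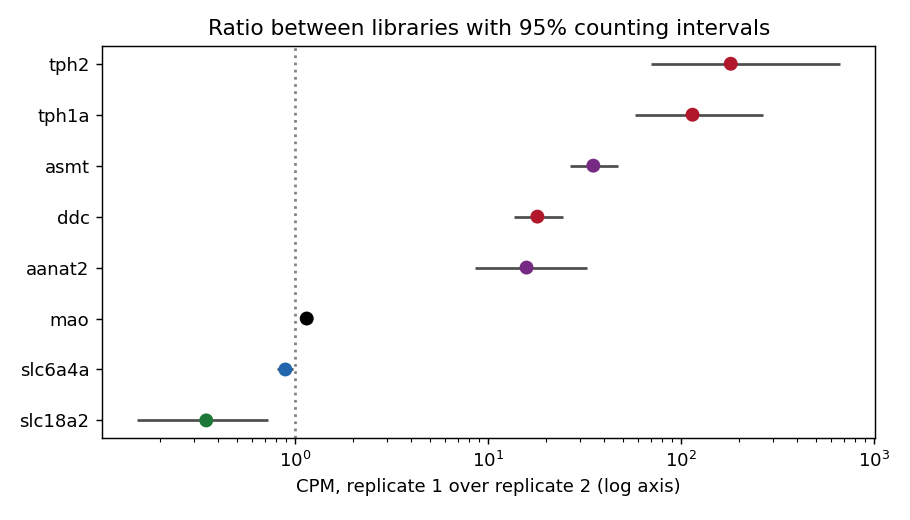
CPM in replicate 1 over replicate 2 for 8 of the 9 genes on a log axis, with 95% exact binomial counting intervals (lines) and a dotted line at equality. Points are coloured by role, and aanat1 is left out for want of reads. The 5 synthesis genes with reads lie between 15.9 and 181, mao and slc6a4a lie near 1, and slc18a2 lies below 1.

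The order of levels changed between the libraries. In replicate 1 it ran asmt, mao, slc6a4a, tph1a, tph2, ddc, aanat2, slc18a2 and aanat1, with slc6a4a and tph1a as the only neighbours whose counting intervals overlapped above 1 TPM. In replicate 2 it ran mao, slc6a4a, asmt, slc18a2, ddc, aanat2, tph1a, tph2 and aanat1. There the counting intervals of neighbours overlapped throughout from slc18a2 down. For example, aanat2 lay at 0.414 to 1.49 TPM and tph1a at 0.181 to 0.828 TPM.

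As log2 ratios of TPM + 1, replicate 2 over replicate 1, less the median of -0.25 over the 15125 genes averaging 1 TPM or more, the members spread from -4.97 for tph1a to 1.02 for slc18a2. The values were -4.84 for tph2, -4.74 for asmt, -3.31 for ddc, -2.82 for aanat2, -0.08 for mao and 0.39 for slc6a4a. Adding 1 understates the ratio of low genes. Counts of genes at least 2-fold different, or more, use this centred scale unless an alternative is named. The median of the 6 synthesis genes, aanat1 included, was -4.03, and without aanat1 it was -4.74. The median of slc6a4a and mao was 0.16, beside 0 over all genes by construction.

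Of the 8 members averaging 1 TPM or more, 5 were at least 2-fold higher in replicate 1, against 5.22% of all genes, and 1, slc18a2, was at least 2-fold higher in replicate 2, against 3.56% of all genes. The value of slc18a2 sat at that limit and fell short of it under 3 of the 6 alternative scalings, with the lowest at 0.96. Among members averaging 10 TPM or more, 4 of 6 were at least 4-fold higher in replicate 1, against 0.894% of all genes, and 3 of these at least 16-fold, against 0.427%. Only replicate 1 carried tph1a, tph2, ddc and asmt past the filter of 10 TPM and tph1a, tph2 and aanat2 past that of 1 TPM, only replicate 2 carried slc18a2 past the latter, and the choice of members used this contrast, so nothing is read from these shares. Ranked by the ratio among 15125 genes, tph1a was at place 11, tph2 at 14, asmt at 16, ddc at 64 and aanat2 at 84 from the replicate 1 end.

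**Figure D3:**
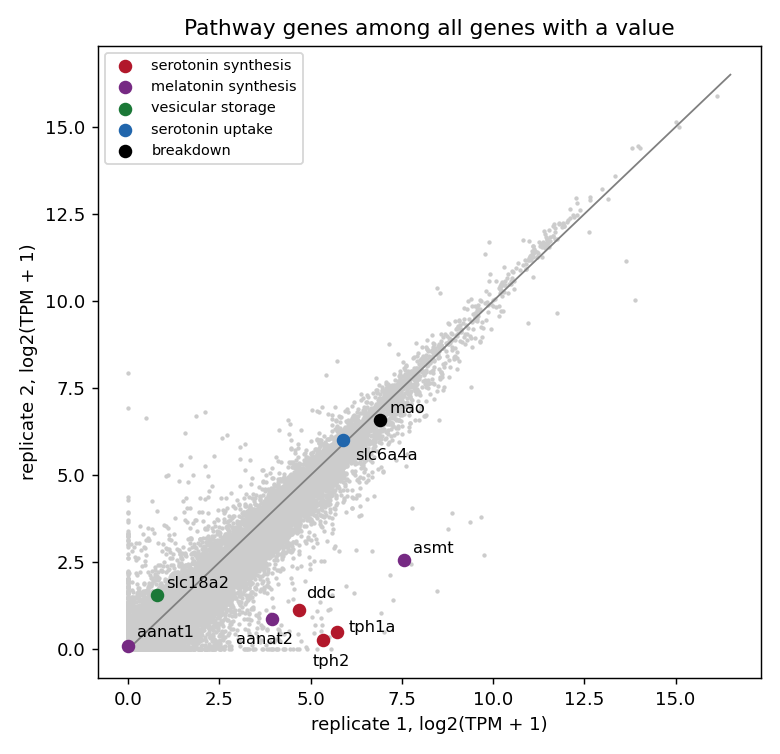
Level of all genes with a value (grey) and of the 9 members (coloured by role) in replicate 1 and replicate 2, as log2(TPM + 1), with the line of equality. The members slc6a4a and mao lie near the line, and tph1a, tph2, ddc, aanat2 and asmt lie far below it.

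Summed over roles, the 6 synthesis genes stood at 319 TPM in replicate 1 and 7.63 TPM in replicate 2. The uptake and breakdown genes stood at 177 and 159 TPM. The synthesis sum was thus 1.80 times the sum for uptake and breakdown in replicate 1 and 0.0481 times that sum in replicate 2.

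Most pineal and photoreceptor genes were higher in replicate 1, as the synthesis genes were. Of 36 matched markers, 29 averaged 1 TPM or more, with a median log2 ratio of -3.31. Of these, 23 were at least 2-fold higher in replicate 1, against 5.22% of all genes. In replicate 2, 0 were so, against 3.56%. Many of the 23, gnat2, gngt2a and bsx among them, were below 1 TPM in replicate 2. Only replicate 1 carried those past the filter, and the median is the value of gngt2a, so nothing is read from the median or these shares. The summed level of all matched markers was 3641 TPM in replicate 1 and 252.8 TPM in replicate 2. In replicate 2 most of that sum came from pde6gb and pde6c. The genes opn1mw4 and rom1a were at 0 in both. The opsin gene of the fish pineal, exorh, was at 656 and 11.7 TPM, the recoverin gene rcvrnb at 862 and 5.50 TPM, and pde6ha at 812 and 13.0 TPM. The genes otx5, crx and bsx, transcription factors of pineal and photoreceptor cells, were at 38.2 and 4.83, 14.8 and 1.35, and 10.3 and 0.38 TPM. The other 6 of the 29 were within 2-fold on the centred log2(TPM + 1) scale, pde6b, pde6gb, arr3b, parietopsin, parapinopsina and pde6c. Of these, pde6gb was at 184 and 134 TPM, and 3 were higher in replicate 2, namely pde6c at 39.3 and 58.5 TPM and the pineal opsin genes parapinopsina at 1.37 and 2.21 TPM and parietopsin, summed over 2 entries, at 1.56 and 2.33 TPM. The gene pde6b sat near the limit, at -0.97, and followed the shift in CPM, 3.40 times as high in replicate 1 (interval 2.51 to 4.68). The factor genes and these 6 genes were picked after their values had been seen. The part of these cells in the level of the synthesis genes was not tested, and in whole tissue fewer cells of a type and less RNA per cell cannot be told apart.

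The synthesis genes did not keep 1 ratio to exorh, and neither did the other pineal and photoreceptor markers. The CPM of exorh was 51.9 times as high in replicate 1. That of otx5 was 7.26 and of gnat2 20.8 times as high, and that of gngt1 109 and of rcvrnb 147 times. Of these, otx5, gnat2 and gngt1 were picked after their values had been seen. What sets these ratios apart was not tested. The level of tph1a was 7.97% of the exorh TPM in replicate 1 (interval 7.39 to 8.58%) and 3.60% in replicate 2 (1.52 to 7.32%). The level of tph2 was 6.09% (5.60 to 6.61%) and 1.72% (0.460 to 4.50%). For these hydroxylase genes the value in replicate 2 was lower. In contrast, ddc was at 3.77% (3.50 to 4.06%) and 10.1% (7.16 to 14.1%), and aanat2 at 2.19% (1.85 to 2.58%) and 7.12% (3.47 to 13.2%). The intervals for asmt, at 28.7% (27.1 to 30.3%) and 42.3% (30.1 to 58.7%), met. The 127 exorh counts and 4 to 53 counts of these genes in replicate 2 set the width.

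**Figure D4:**
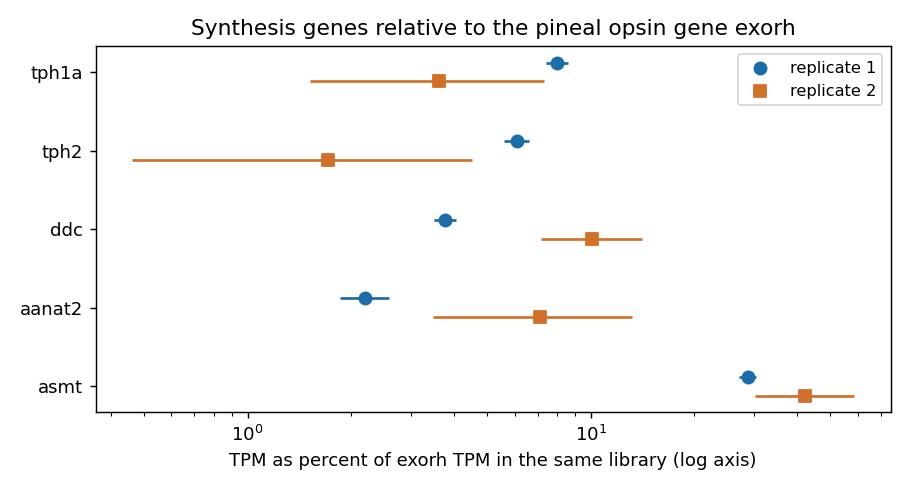
TPM of the 5 synthesis genes with reads as a percent of the TPM of exorh in the same library, on a log axis, with 95% exact binomial counting intervals. In replicate 2 (squares) tph1a and tph2 lie lower and ddc and aanat2 lie higher than in replicate 1 (circles).

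Markers of other cells that handle serotonin were mostly low. Of 15 neuron markers, 3 were detected in both libraries and all 15 were lower in TPM in replicate 2, with a sum of 43.7 TPM in replicate 1 and 11.2 TPM in replicate 2. They were led by snap25b at 15.9 and 3.84 TPM, syt1a at 8.74 and 0.46 TPM and neflb at 3.03 and 2.97 TPM. The median log2 ratio over all genes averaging 1 TPM or more was also below 0, at -0.25. After centring on it, the median of the 6 neuron markers averaging 1 TPM or more was -0.78, while neflb was at 0.23. On the centred scale, 2 of 6 neuron markers averaging 1 TPM or more were at least 2-fold higher in replicate 1, snap25b and syt1a. Over all genes the share was 5.22%. The CPM of elavl4 was 4.59 times (interval 2.62 to 8.51) and of snap25a 3.86 times (1.93 to 8.39) as high in replicate 1. That of nefmb was 2.15 times (1.37 to 3.44) and of neflb 0.954 times (0.652 to 1.39) as high. Only replicate 1 carried syt1a, elavl4 and snap25a past the filter of 1 TPM, so nothing is read from the share or the median. Of the raphe identity markers, the serotonin neuron factor gene fev had 5 and 1 counts, while lmx1bb, also a gene of the dorsal midline, was at 145 and 136 TPM. The factor genes gata2a and gata3 were at 5.90 and 5.38 TPM and at 1.35 and 1.66 TPM.

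All 6 thrombocyte and mast cell markers were higher in TPM in replicate 2, the direction of slc18a2, with sums of 3.35 and 11.2 TPM. They were led by the mast cell protease gene cpa5 at 0.92 and 3.79 TPM, the platelet glycoprotein gene gp9 at 1.17 and 2.57 TPM and gp1bb at 0.76 and 2.96 TPM. Only 3 averaged 1 TPM or more, and 2 of these, cpa5 and gp1bb, were at least 2-fold higher in replicate 2, against 3.56% of all genes. Only replicate 2 carried these 2 past the filter, so nothing is read from this share. Counts were low, and the intervals toward replicate 2 of gp9, 0.952 to 6.66, and of f5, 0.686 to 7.58, included equality. That of itga2b, 1.04 to 5.68, came close to it, and those of mpl, cpa5 and gp1bb excluded it. The share of all genes higher in TPM in replicate 2 was not counted, so nothing is read from the common direction. No marker of this list was at 0 in either library. Their part in the slc18a2 level was not tested.

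Across 9 lists of other genes around the pathway, 61 of 71 symbols were matched and 30 were detected. Of these 30, 14 were at 10 TPM or more and 5 at 100 or more in both libraries. No reads at all were found for 13 of the matched genes. Of the 61, 31 averaged 1 TPM or more, beside 15125 of all 25432 genes, and nothing is read from the number detected. Of 31 averaging 1 TPM or more, 2 were at least 2-fold higher in replicate 1, against 5.22% of all genes, and 5 in replicate 2, against 3.56% of all genes. The first share is close to that of all genes and the second is above it. Both counts are small, and nothing is read from them. Those higher in replicate 1 were gch1 and htr2aa. Those higher in replicate 2 were sprb, gch2, slc29a4, htr1d and cyp1c1.

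**Figure D5:**
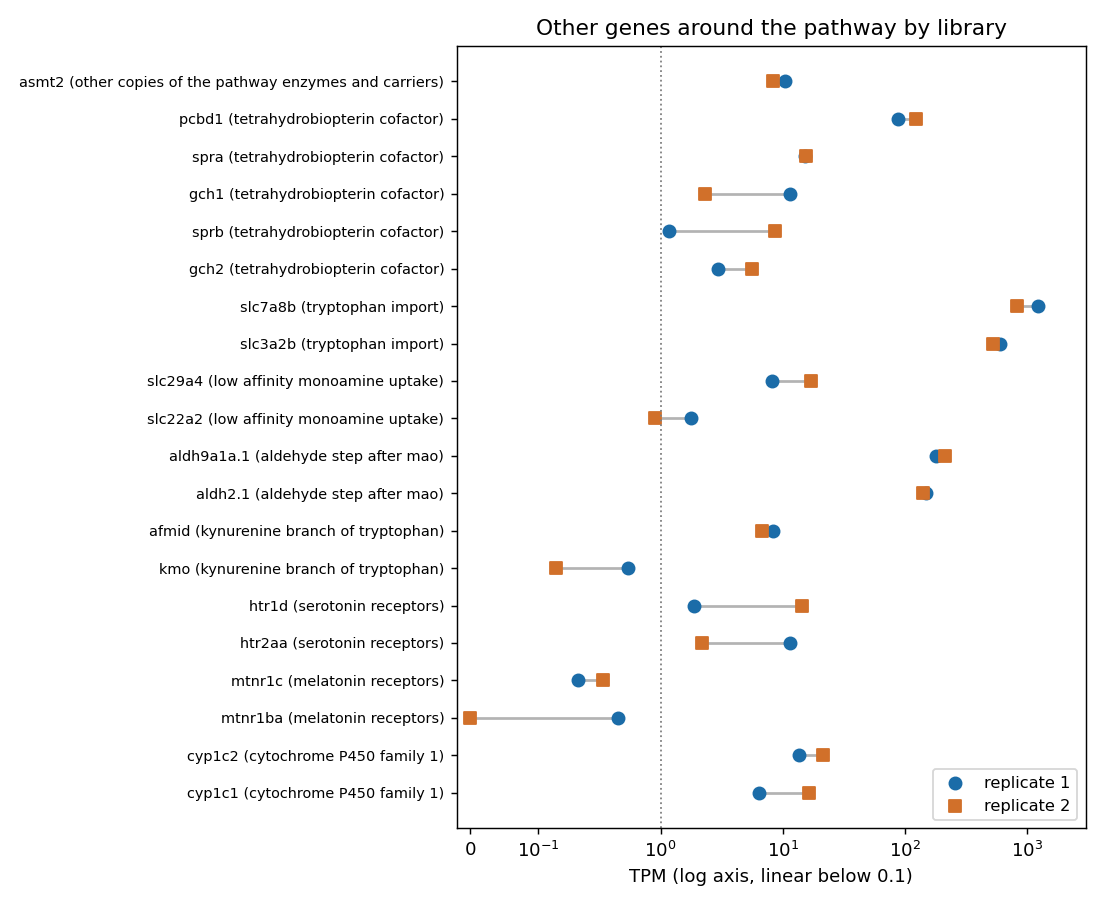
Level in TPM of the genes around the pathway that were named by rule, in replicate 1 (circles) and replicate 2 (squares), on a log axis that is linear below 0.1. Genes of tryptophan import and of the aldehyde step stay above 100 TPM in both libraries, and the receptor genes htr1d and htr2aa move in opposite directions.

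The cofactor of tryptophan hydroxylase, tetrahydrobiopterin, is made from GTP by a pathway whose first enzyme is encoded by gch1 and gch2. Of 8 matched genes of this pathway and its recycling, 7 were detected, and pts had 0 counts in both libraries. The gene gch1 was at 11.6 and 2.32 TPM in replicates 1 and 2, from 311 and 47 counts, with a CPM 7.60 times as high in replicate 1 (interval 5.58 to 10.6). The direction of gch1 was that of tph1a and tph2. Its copy gch2 went the other way, at 2.95 and 5.63 TPM, with a CPM 2.08 times as high in replicate 2 (1.45 to 3.03) and a log2 ratio of 1.00, just at the limit. The sepiapterin reductase gene sprb was at 1.17 and 8.69 TPM, with a ratio of 8.06 toward replicate 2 (4.43 to 16.1), and its copy spra was at 15.4 ± 0.163 TPM (SD, n = 2). The most abundant was pcbd1, which serves cofactor recycling, at 88.1 and 123 TPM.

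Genes for the import of tryptophan and other large neutral amino acids were abundant, and all 6 were detected. The carrier slc7a8b was at 1234 and 833 TPM and its partner chain slc3a2b at 604 and 529 TPM in replicates 1 and 2. None of the 6 differed 2-fold on the centred log2(TPM + 1) scale; slc3a2a, at 42.2 and 19.7 TPM, had a ratio of -0.81 there and a CPM 1.97 times as high in replicate 1. After mao, aldehydes are oxidised or reduced, and 5 of 6 genes of this step were detected. They were led by aldh9a1a.1 at 197 ± 23.8 TPM and aldh2.1 at 145 ± 4.86 TPM (SD, n = 2), and akr1a1a had 0 counts in both.

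Of the low affinity carriers for monoamines, the plasma membrane monoamine transporter gene slc29a4 was at 8.22 and 16.9 TPM, summed over 2 gene entries of that symbol of which 1 had no reads. Its CPM was 2.24 times as high in replicate 2, with an interval of 1.86 to 2.71. The organic cation transporter gene slc22a2 was at 1.77 and 0.90 TPM. Both were below slc6a4a in each library.

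Of 19 matched serotonin receptor genes, 5 were detected in both libraries, 0 reached 10 TPM in both, and 7 had no reads in either. The receptor gene htr1d was at 1.89 TPM in replicate 1 and 14.3 TPM in replicate 2, from 40 and 379 counts, a ratio of CPM of 8.25 toward replicate 2 (interval 5.95 to 11.7). In contrast, htr2aa was at 11.4 and 2.19 TPM, from 96 and 23 counts, a ratio of 4.79 toward replicate 1 (3.02 to 7.92). The receptor list summed to 21.9 and 25.3 TPM, so the leading receptor gene changed between libraries while the sum differed little. The gene htr2cl1, of the receptor type known from mammalian choroid plexus, was at 3.84 and 2.17 TPM, from 101 and 71 counts. It was picked after its values had been seen.

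No melatonin receptor gene was detected. The 6 genes together stood at 1.17 TPM in replicate 1 and 0.34 TPM in replicate 2. The highest in mean TPM over both libraries was mtnr1c, with 2 and 4 counts, followed by mtnr1ba, with 4 and 0 counts. In replicate 1 mtnr1ba was the higher, at 0.45 against 0.21 TPM. For both genes a difference between the libraries was not detectable at this depth. The longer gene mtnr1ab had 8 and 0 counts in replicates 1 and 2, and it was picked after its values had been seen. The counting interval of its CPM ratio toward replicate 1 began at 1.96 and had no upper limit.

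By distance between pairs of log2(TPM + 1) values over the 2 libraries, the 3 genes most like slc6a4a were ube2v1 (57.0 and 64.9 TPM), nfs1 (56.7 and 64.5 TPM) and rnf185 (56.7 and 64.5 TPM), at distances of 0.03. Those most like aanat2 were cnga1a at 14.2 and 0.69 TPM (distance 0.12), zgc:174357 at 13.8 and 1.04 TPM (0.17) and pde4d at 12.9 and 1.19 TPM (0.30). The gene cnga1a encodes a subunit of a photoreceptor channel gated by cyclic nucleotides. With 2 libraries this likeness holds a level and 1 difference, and nothing more.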

How the data were processed

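The submitters' processing notes name genome build GRCz11, STAR without a version, and RSEM 1.3.3; the annotation and any strand setting were not stated in the labels. The values the authors deposited are, per the file headers, RSEM's expected counts, which can be fractional, and TPM per gene. FPKM deposited by the authors were not analysed. Effective lengths were deposited in the same files. The authors' table of the whole series held 21019 genes, with TPM within 0.005 of the mean of both libraries, and served for names (20973 genes); a reference table of symbols named 3589 more. Entries sharing a symbol were summed.

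Totals were 11712489 and 13446356 expected counts, so 3 counts equal 0.256 and 0.223 CPM. Reads carried no known molecular identifiers. Counts were rounded for exact 95% intervals (binomial for ratios, Poisson for levels, scipy 1.17.1), which cover counting error only. Nothing in the labels says how the 2 pools were set apart beyond the word batch, so replicate and batch cannot be told apart. Both libraries form 1 group, so nothing was tested between groups. Scaling alternatives used TMM factors (edgeR 4.0.16) and size factors (DESeq2 1.42.0) on the deposited expected counts, rounded to whole numbers.

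The members and lists were chosen with earlier results of these data known. Genes outside the members were named by rule or after their values were seen. The rule took the 2 highest of each pathway list and the 3 highest of each marker list. It also took any gene of the pathway lists at least 2-fold different and averaging 1 TPM or more. The 3 genes most like slc6a4a and aanat2 were added. Any other gene named, such as fev and slc3a2a, is to be taken as picked after its values were seen, also where this is not said. A planned search of promoters for motifs was not run, as no sequence was used here.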

Additional observations from a re-analysis of the deposited data

How the results depend on the processing

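Under 6 alternatives (a pseudocount of 0.1 TPM, CPM, TMM scaling, DESeq2 size factors, and the median over genes averaging 5 TPM or more or over all genes with a value), 5 members stayed at least 2-fold higher in replicate 1 each time. The median log2 ratio of the synthesis genes, aanat1 included, ran from -4.03 as reported to -4.47 with a pseudocount of 0.1. There the smaller constant widens ratios of low genes by construction. The median of slc6a4a and mao lay between 0.10 and 0.19. A range for each reported log2 ratio was made by placing the width of the gene's CPM counting interval, on the log2 scale, around the reported value; for aanat1 it has no limits. Of 54 single ratios, 50 stayed within that range, and 0 of those at least 2-fold changed sign. The 50 include the aanat1 ratio under each of the 6 alternatives, which could not fall outside. Outside their range were tph1a (-6.37), tph2 (-6.78) and ddc (-3.99) with the pseudocount of 0.1, and mao (-0.01) with DESeq2 size factors. Of the genes around the pathway, 30 were detected as reported, 33 at a limit of 0.5 TPM, 24 at a limit of 2 TPM and 31 in either library alone. The mean of a synthesis gene over both libraries describes neither: without replicate 1 the level of tph1a was 0.42 TPM and without replicate 2 it was 52.2 TPM. No paired analysis was possible because both libraries form 1 group. Depth limits aanat1, tph2 in replicate 2 and the melatonin receptor genes, which rest on 0 to 8 counts.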

Other observations

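The noradrenaline transporter gene slc6a2 was at 38.7 and 30.0 TPM in replicates 1 and 2, from 1771 and 1721 counts, beside the serotonin transporter gene slc6a4a. Of the other catecholamine genes listed, th2, dbh, slc6a3 and pnmt had 0 counts in both libraries, and the tyrosine hydroxylase gene th had 4 and 1 counts. Transcripts of the carriers for reuptake of serotonin and of noradrenaline were therefore both present in each library, and the proteins were not measured. Of the genes for enzymes that make noradrenaline, dbh had no reads and th was close to the limit of 3 counts. In contrast, ddc, shared with serotonin synthesis, had 802 and 51 counts.

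The kynurenine branch, which uses tryptophan in place of serotonin synthesis, was nearly silent. Of 6 genes, afmid alone was detected, at 8.36 and 6.71 TPM, and kmo followed at 0.54 and 0.14 TPM. Of 5 genes of the cytochrome P450 family to which the melatonin hydroxylases of mammals belong, 4 were detected. The highest were cyp1c2 at 13.7 and 21.3 TPM and cyp1c1 at 6.39 and 16.3 TPM, the latter with a CPM 2.34 times as high in replicate 2 (95% exact binomial interval 1.93 to 2.86).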
